A study of Danio rerio with 12 samples.

Results

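Broad accessible intervals, single stretches of open chromatin of 500 bp or more, were chosen by their width from the peak lists of 12 ATAC-seq libraries of zebrafish melanocytes and melanoma cells. On chromosomes 1 to 25 the 12 lists held 1146040 intervals, and 17175 of them were at least 500 bp wide. Merged across libraries wherever they overlapped by 1 bp or more, the broad intervals gave 7890 regions, called members here, out of 385461 regions made from all intervals. The median member spanned 578 bp and the longest spanned 1893 bp. Melanocytes (MC) were sorted for mCherry from the skin of 4 fish, and melanoma cells (MA) were sorted for EGFP from tumours of 8 other fish. The 3 MC_Het libraries (replicates 4, 5 and 6) came from fish heterozygous for the oncogene and the tumour suppressor allele, BRAFV600E/+/p53+/lf/mitfa+/-, and the MC_Homo library came from 1 fish of genotype BRAFV600E/p53lf/lf/mitfa+/-. Both kinds of melanocyte fish carried mitfa:mCherry on a MiniCoopR construct, which also supplies mitfa. The 8 MA libraries (replicates 4 to 11) came from BRAFV600E/p53lf/lf/crestin:EGFP fish, so every library carried the BRAFV600E transgene, which the mitfa promoter drives in the melanocyte lineage, and at least 1 p53 loss-of-function allele. Sequencing run 2 held every MC library together with MA replicates 4 and 5. Run 3 held MA replicates 6 to 11 and no melanocytes. Inside the peak lists, the peak names of MA replicates 6 to 8 contain "unpig". Those of MA replicates 9 to 11 contain "pig", and the sample labels explain neither name. The paper describes the melanoma cells as sorted for the GFP marker and mentions that its tumours differed in pigmentation status. Whether the peak names stand for that status was not checked, and they were not used to group libraries in any test. Because width chose the members, their number and width in the libraries are a description, and tests were limited to the summits inside them, to the height of their summits and to widths in libraries that took no part in choosing the sites.

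In ATAC-seq the transposase Tn5 cuts DNA that is not wrapped tightly in nucleosomes, and the density of cuts marks promoters, enhancers and other regulatory DNA. A single bound enhancer or promoter usually opens a gap of about the size of the nucleosome it displaces, whereas a wide interval covers several neighbouring gaps, as at clustered enhancers and at the promoters of highly transcribed genes. Very wide and very tall intervals can also lie where short reads from several copies of a sequence pile up on 1 assembled copy. The peak caller joined neighbouring bases above its threshold into 1 interval and wrote 1 line for each local maximum, or summit, inside it. A summit's height is given here as the tags that cover it per 1000000 tags of the library (RPM). Height does not separate the share of cells in which a place is open from how open it is in each cell.

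Melanoma libraries held more broad intervals than the melanocyte libraries, with 1 exception. MC_Het replicate 4 had 151 intervals of 500 bp or more, MC_Het replicate 5 had 3004, MC_Het replicate 6 had 301 and MC_Homo had 88. The 8 MA libraries had from 878 (replicate 11) to 3611 (replicate 8), with a median of 1329. As a share of all intervals of the library these were 0.188%, 1.13%, 0.322% and 0.152% in MC and 1.05% to 4.13% in MA, with an MA median of 2.04%. The groups overlapped only through MC_Het replicate 5, whose 24619000 tags were more than in any other library (6046000 to 11543000). Within run 3, MA replicates 6, 7 and 8 ("unpig") held 1718, 2715 and 3611 from 8779000, 9379000 and 11543000 tags. MA replicates 9, 10 and 11 ("pig") held 1457, 1201 and 878 from 6884000, 6521000 and 6046000 tags. In run 2, MA replicates 4 and 5 held 1104 and 947 from 6313000 and 7851000 tags. Peak name and depth cannot be told apart in run 3, and the part of either was not tested. Broad intervals covered 0.849% to 3.86% of all called bases in MC and 3.56% to 11.4% in MA.

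**Figure D1:**
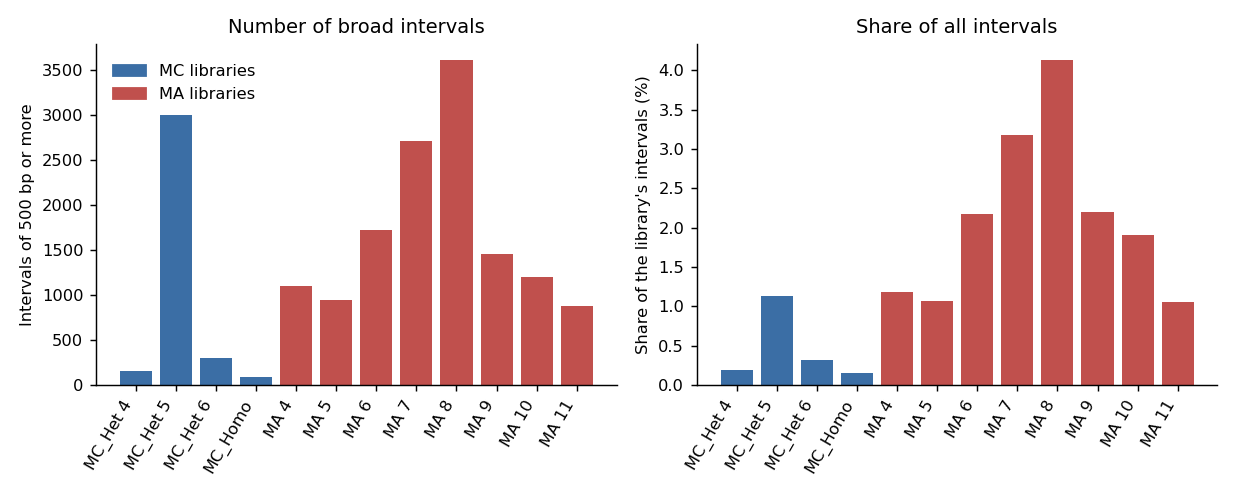
Number of intervals of 500 bp or more in each library (left) and their share of all intervals of the library in percent (right), MC in blue and MA in red. MC_Het replicate 4, MC_Het replicate 6 and MC_Homo held 151, 301 and 88, below all 8 MA libraries (878 to 3611), and MC_Het replicate 5 held 3004.

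The threshold of 500 bp cut through a continuous range of widths. Intervals just inside it, at 500 to 549 bp, numbered 51, 1200, 110 and 25 in MC_Het replicates 4, 5 and 6 and MC_Homo and 403 to 1306 in MA. Those just outside it, at 450 to 499 bp, numbered 82, 2036, 233 and 41 in MC and 673 to 2071 in MA. The median height was 0.812 to 13.6 RPM just inside and 0.772 to 4.52 just outside in MC, and 4.47 to 8.32 inside and 4.13 to 7.40 outside in MA. Most broad intervals were not far above the threshold, with a median width of 566 to 634.5 bp in MC and 557 to 578 bp in MA. Intervals of 1000 bp or more were few and about as many in both cell types, with 17, 37, 19 and 17 in MC and 12 to 30 in MA.

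Broad intervals were taller than the rest of their own list. The median height of broad intervals was 11.2 RPM in MC_Het replicate 4, 0.853 in MC_Het replicate 5, 3.39 in MC_Het replicate 6 and 32.5 in MC_Homo. In MA it was 5.13 to 9.11, with a median of 6.92. Narrower intervals had median heights of 0.528 to 1.40 in MC and 1.16 to 1.74 in MA. The 4 melanocyte values therefore spread far more widely than the 8 melanoma values. The local background that the peak caller estimated around the summit was also raised at broad intervals, to a median of 4.34, 1.056, 2.11 and 12.02 times the library's base level in MC and 2.38 to 3.51 times in MA, against at most 1.104 times at narrower intervals in all 12 libraries. Peaks were called without control, so this background came from the tags of the same library. It is therefore not independent of the height of the interval. Of the tenth of intervals with the lowest p-values, 1.12% to 3.45% were broad in MC and 5.49% to 19.4% in MA.

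At the same summit height, melanoma intervals were more often broad than melanocyte intervals over the middle of the range. Each library was measured at its own intervals, so these shares do not compare widths at the same place. Among intervals 8 to 16 RPM high, 0.356% to 1.88% were broad in the 4 MC libraries and 7.39% to 21.4% in the 8 MA libraries. Their median width in the library was 121 to 129 bp in MC and 292 to 378 bp in MA, with no overlap. At 4 to 8 RPM the broad share was 0.0901% to 3.504% in MC and 2.36% to 12.8% in MA, where only MC_Het replicate 5 reached the MA range. Above 32 RPM the shares overlapped, at 16.1% to 27.6% in MC and 18.5% to 32.8% in MA. Below 1 RPM, MC_Het replicate 5 stood apart at 0.765%, against at most 0.0651% in any MA library.

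Most members were broad in a single library, although few were missing from the other lists altogether. Of the 7890 members, 4696 (59.5%) were broad in 1 library, 1175 in 2, 677 in 6 or more and 55 in all 12. An interval of any width was present in all 12 libraries at 1562 members (19.8%) and in 1 library only at 171 members. Between pairs of MA libraries, a median of 45.1% of one library's broad intervals overlapped a broad interval of the other (range 18.2% to 79.2%) and a median of 96.4% overlapped an interval of any width. For MA broad intervals in MC libraries the medians were 8.48% and 60.1%. In the reverse direction, MC broad intervals in MA libraries, they were 57.5% and 91.0%, and for pairs of MC libraries 57.9% and 95.9%. These shares move with the length of the lists. For example, 657 of the 878 broad intervals of MA replicate 11 (74.8%) were broad in MA replicate 8, and 659 of the 3611 of MA replicate 8 (18.2%) were broad in MA replicate 11.

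The 2180 members that were broad only in MC_Het replicate 5 were low. Their median height in that library was 0.772 RPM, and their median width there was 559 bp. MC_Het replicate 4 had an interval at 50.4% of them, MC_Het replicate 6 at 63.1%, MC_Homo at 36.6% and the MA libraries at 34.0% to 48.2%, with median widths between 137 and 238 bp. In MC_Het replicate 5, 83.3% of the broad intervals were under 2 RPM, compared with 17.2% in MC_Het replicate 4, 27.9% in MC_Het replicate 6, 4.55% in MC_Homo and 3.02% to 11.2% in MA. Counting only broad intervals of 2 RPM or more, the MC libraries held 125, 503, 217 and 84 and the MA libraries 787 to 3272, which did not overlap. That limit takes out most broad intervals of MC_Het replicate 5, the library through which the groups had overlapped. Heights also ran lower in MC, with a median log2 height of 1.502 against 2.44 in MA at regions found in all 12 libraries. The counts are therefore a description. Without MC_Het replicate 5 the members numbered 5710, those broad in MC only fell from 2310 to 130, and those broad in MA only numbered 5347 instead of 4764. The part of depth in these values was not tested.

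The 55 members that were broad in every library were also among the tallest. Their median height in the library was 46.0 to 57.8 RPM in MC and 30.1 to 45.5 in MA, and 44 of the 55 stood at 10 RPM or more in all 12 libraries. Their mean width over the 12 libraries ran from 523 to 1563 bp, with a median of 788 bp, and 14 were 1000 bp or wider on average. The edges of some were nearly fixed. At chr14:33511047-33511701 (danRer11, as all coordinates here) the interval was 655 bp wide in all 12 libraries, with heights from 125 to 179 RPM. At 9 of the 55 the widest and the narrowest of the 12 intervals differed by 10 bp or less, and the median difference was 40 bp. The difference exceeded 100 bp at 17 members. These 55 lay on 21 chromosomes, 8 of them on chromosome 9.

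The widest member overall was chr25:1079864-1081756. It was 1866, 1876, 1857 and 1874 bp wide in MC_Het replicates 4, 5 and 6 and MC_Homo, and 671 to 1888 bp wide in MA with a median of 1560.5 bp, so some tumours had it in pieces. Its height was 23.8, 24.98, 26.3 and 24.2 RPM in the same MC libraries and 16.5 to 21.8 in MA. It also held the most summits in 1 interval, with 9 in MC_Homo and 6, 7 and 7 in the MC_Het libraries. In the 4 tumours that had it as 1 interval it held 7 or 8 summits, and in the other 4, where it was split into 2 or 3 intervals, no piece held more than 4.

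Of the 5 members with the highest mean width over the 12 libraries, the other 4 varied less. Outside these 5, and chosen after its values were seen, chr2:40602094-40603801 varied from 567 to 1675 bp, with a mean of 1345 bp in MC and 725 bp in MA. chr20:40104943-40106325 was 1382, 1382, 1382 and 1376 bp wide in the MC libraries and 1213 to 1382 bp in MA, and held up to 7 summits. chr20:21615825-21617139 was 1307 to 1315 bp wide in MC and 1287 to 1313 bp in MA, with 4 summits in each of the 12 libraries. Its height was 103, 98.2, 115 and 112 RPM in the 4 MC libraries and 82.2 to 110 in MA. chr13:23485388-23486796 was 1378 to 1405 bp in MC and narrower in all 8 MA libraries, at 1206 to 1361 bp. chr20:47330482-47331701 was 1212 to 1220 bp in MC and 1206 to 1210 bp in MA, and its height of 235 to 347 RPM in MC and 195 to 306 in MA was the highest of the 5 widest. Another member with many summits, chr4:34312301-34313704, was of another kind. It had 8 summits in 1 interval of 1404 bp in MC_Het replicate 5. The same stretch was split into 3 intervals in MC_Het replicate 4 (the widest 179 bp), 2 in MC_Het replicate 6 (509 bp) and 3 in MC_Homo (220 bp), at heights of 1.03 to 1.46 RPM, and no MA library had an interval there.

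Summit heights were compared between MA and MC at the 9714 regions with an interval in all 12 libraries, of which 1562 were members. The median log2 height of these regions was 2.44 ± 0.20 RPM in MA (SD, n = 8) and 1.502 ± 0.13 in MC (SD, n = 4), a difference of 0.94 on the log2 scale, and each library was centred on its own median before limma was fitted across all regions. With Benjamini-Hochberg adjustment over all 9714 regions, 2973 regions (30.6%) were called higher in MA and 3968 regions (40.8%) lower in MA, 71.5% in either direction. Among the members, 832 of 1562 were higher (53.3%) and 192 were lower (12.3%), with a median log2 difference of 0.78 against 0.02 over all regions. Without centring, 1245 members were higher in MA and 69 lower, and 5065 and 1133 of all regions. Width in these same libraries chose the members, and 4764 of them were broad in MA only, so these counts describe the members and were not read as a property of broad intervals.

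The regions fell into 2 bands that a plot of the fit made visible, and a limit of -0.75 on the centred log2 difference was set after that plot was seen. Below the limit lay 3766 of 8152 other regions (46.2%) and 192 of 1562 members (12.3%). The members below it had a median log2 difference of -1.39, with an SD of 0.33 over members. In tags RPM without centring, the same members differed between MA and MC by a median of -0.45 on the log2 scale, and their log2 heights had a median SD of 0.49 over the 12 libraries. The members at or above the limit had a median of 0.89 centred and 1.83 without centring, with a median SD of 1.09 over the 12 libraries. Of the 55 members broad in all libraries, 52 lay below the limit and 3 above it.

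**Figure D2:**
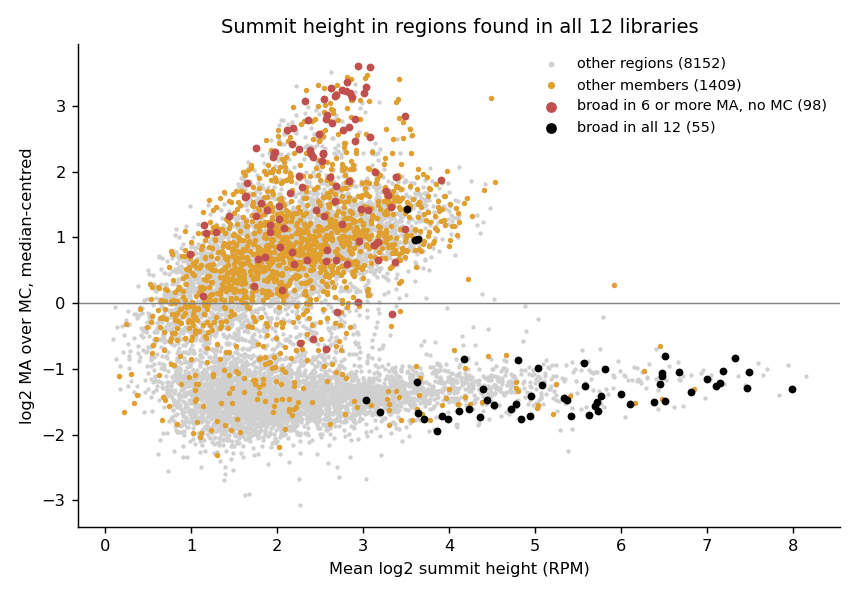
Difference in summit height between MA and MC (y axis, log2, each library centred on its median) against mean height (x axis, log2 RPM) for 9714 regions with an interval in all 12 libraries; grey points are regions that are not members, and the other colours are members. Of the 55 members broad in all libraries (black), 52 lie in the lower band and 3 in the upper one, and the 98 members broad in 6 or more MA and no MC library (red) lie above -0.75.

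Broad members from the lower band, which holds only regions with an interval in all 12 libraries, were counted in each library. MC_Het replicates 4, 5 and 6 and MC_Homo held 82, 131, 90 and 73 of them, and the MA libraries held 79 to 113. They made up 54.3%, 4.36%, 29.9% and 83.0% of the broad members of the MC libraries and 3.13% to 9.34% of those of the MA libraries. The remaining broad members numbered 69, 2871, 211 and 15 in MC and 796 to 3496 in MA. Their median heights were 2.84, 0.853, 2.44 and 2.34 RPM in MC and 4.63 to 8.77 in MA. The broad members of the lower band had median heights of 33.0, 18.0, 32.9 and 44.3 RPM in MC and 12.2 to 31.7 in MA. The limit of the band was set on the height difference, MA minus MC, in these same libraries. These shares and heights are therefore a description.

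The 3 members that were broad in all 12 libraries and lay in the upper band were chosen after their values were seen. The choice was made on height, over 2 times as high in MA as in MC. Their height differences and p-values therefore follow from that choice and are a description. chr25:30195487-30196168 had heights of 4.01, 3.53, 6.21 and 2.34 RPM in MC_Het replicates 4, 5 and 6 and MC_Homo and of 9.26 to 31.7 in MA with a median of 23.4. All 8 tumours were above all 4 melanocyte libraries. The log2 difference was 1.44 ± 0.28 (SE; limma, adjusted p = 3.9e-05). Its widths overlapped between the groups, at 514, 629, 549 and 538 bp in MC and 552 to 615 bp in MA. They spread over 115 bp in the 12 libraries, and it held 2 summits in every library. chr17:11418460-11419052 was alike, with heights of 5.43, 5.32, 4.51 and 5.30 in MC and 10.2 to 28.6 in MA, widths of 509 to 525 bp in MC and 511 to 577 bp in MA, and 2 summits in every library. chr12:22559544-22560486 was 643 to 907 bp wide in MC and 656 to 942 bp in MA, with heights of 3.27 to 6.59 in MC and 12.1 to 33.3 in MA. For chr17:11418460-11419052 and chr12:22559544-22560486 the log2 differences of 0.98 ± 0.26 (SE; limma, adjusted p = 0.0011) and 0.96 ± 0.28 (SE; limma, adjusted p = 0.0025) lost significance with run as a covariate, at 0.70 (limma, adjusted p = 0.10) and 0.50 (limma, adjusted p = 0.27). These 2 members kept direction and significance in 16 and 15 of 19 alternative fits, with lowest log2 differences of 0.22 and 0.05.

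At 389 members the interval was broad in 6 or more of the 8 tumours and in no melanocyte library. An interval of some width was present at 56.8%, 89.2%, 54.0% and 46.0% of them in MC_Het replicates 4, 5 and 6 and MC_Homo and at 99.2% to 100% in MA. Their median width was 161, 265, 169.5 and 150 bp in those MC libraries and 518.5 to 621 bp in MA. Their median height, where an interval was called, was 1.16, 0.691, 1.03 and 1.40 RPM in MC and 4.30 to 13.8 in MA. In MC_Het replicate 5, 45.2% of the detected members held 2 or more separate intervals, and in the other MC libraries 10.6% to 27.6% did, against 2.06% to 16.02% in MA. At 19 members no MC library had an interval. At 88 members all 8 tumours were broad. The share of the 389 that reached 500 bp ranged from 58.9% in MA replicate 11 to 99.5% in MA replicate 8. In run 2 it was 79.2% (MA replicate 4) and 68.4% (MA replicate 5).

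By mean height in MA, the tallest of these members was chr24:31665620-31666194. Its height was 3.10, 1.46, 1.13 and 2.80 RPM in the MC libraries and 9.43 to 63.4 in MA, with a median of 27.1. Its width was 175, 361, 216 and 170 bp in MC and 488 to 575 bp in MA. chr22:13137705-13138416 was 277, 190 and 130 bp wide in the 3 MC_Het libraries, at 0.905, 0.894 and 1.22 RPM, and had no interval in MC_Homo. The 8 tumours had it at 546 to 698 bp and 10.3 to 45.95 RPM. chr9:14533258-14533893 was also missing from MC_Homo, stood at 0.846 to 1.29 RPM and 132 to 296 bp in the MC_Het libraries, and at 15.5 to 43.6 RPM and 573 to 611 bp in MA. chr9:43875534-43876142 had heights of 0.609 to 2.03 in MC and 12.2 to 42.1 in MA, and its width in MC_Het replicate 5, 485 bp, was just under the threshold. At chr22:20384958-20385544 the melanocyte intervals were taller, at 4.78, 4.55, 4.61 and 2.80 RPM, and 281 to 376 bp wide, against 16.4 to 46.3 RPM and 378 to 556 bp in MA. These 5 were selected on their height in MA, so the differences are a description.

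The opposite pattern was found at 6 members, which were broad in 3 or more melanocyte libraries and in no tumour. They lay below the height limit of -0.75 wherever an interval was present in all 12 libraries, which was the case at 3 of them. chr1:40647635-40648399 was 708, 765, 725 and 398 bp wide in MC_Het replicates 4, 5 and 6 and MC_Homo and 434 to 476 bp wide in MA. Its height did not separate the groups, at 10.2, 12.3, 13.2 and 19.2 RPM in MC and 5.54 to 17.0 in MA. In the centred fit it was called lower in MA (limma, adjusted p = 0.00025), and without centring it was not (limma, adjusted p = 0.19). chr12:19020917-19021623 was 702, 707, 702 and 436 bp wide in MC and 313 to 496 bp in MA. chr8:5516507-5517242 was 353 bp wide in MC_Het replicate 4 and 734 or 735 bp in the other MC libraries, against 266 to 416 bp in MA. chr16:5408244-5408837 and chr7:2434363-2435063 had an interval in 2 of the 8 tumours only, of 250 to 305 bp and 116 to 182 bp, and were 550 to 594 bp and 531 to 701 bp wide in the MC_Het libraries. MC_Homo fell short of 500 bp at 5 of the 6 members.

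At the same place, members were wider in MA more often than in MC. Among the 6990 members with an interval in both cell types, the mean width of the widest interval was larger in MA at 4833 (69.1%) and larger in MC at 2156, with a median difference of 114 bp. Width chose the members, and 8 MA but only 4 MC libraries took part in the choice, so these counts are a description. How much of either direction that choice made was not tested. Among members broad in MA only, 96.1% were wider in MA, and among those broad in MC only, 7.88% were. At the 816 members broad in both cell types, 567 were wider in MA and 248 in MC, with a median difference of 52.7 bp. At the 55 members broad in all libraries, 49 were wider in MC and 5 in MA, with a median difference of -12.9 bp.

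**Figure D3:**
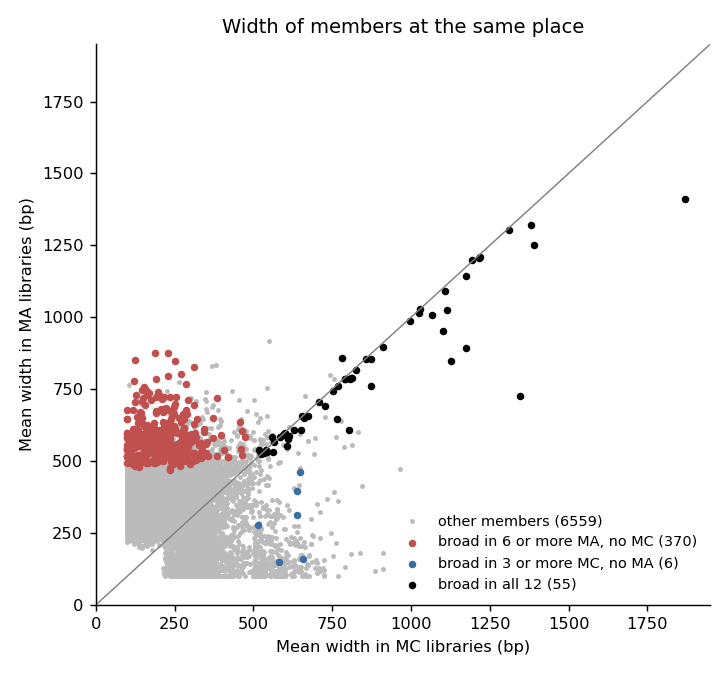
Mean width of the widest interval in MC libraries (x axis, bp) and in MA libraries (y axis, bp) for 6990 members with an interval in both cell types, with the diagonal in grey. The 55 members broad in all libraries (black) lie near or below the diagonal, and the 370 members broad in 6 or more MA and no MC library (red) lie above it by the choice that made the group.

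Width was therefore tested at sites chosen in 2 libraries and measured in the other 10. MC_Het replicate 4 and MA replicate 4 shared 92 broad sites, and all 10 remaining libraries had an interval at each of them. The overlap took in 92 of the 151 broad intervals of MC_Het replicate 4 and 93 of the 1104 of MA replicate 4. Most places that were broad in MA replicate 4 were therefore outside the test. The mean width of the widest interval was 800, 758 and 680 bp in MC_Het replicate 5, MC_Het replicate 6 and MC_Homo, and 691 to 744 bp in the 7 MA libraries, with a median of 712 bp. The mean difference, MA minus MC, was -30.7 bp, less than the SD of 61.3 bp among the MC libraries (exact two-sided permutation test over 120 splits, p = 0.24, adjusted over 5 tests p = 0.39; the smallest p possible was 0.0083). The interval was still broad at 97.8%, 88.0% and 76.1% of the sites in those MC libraries and at 88.0% to 96.7% in MA, a difference of 3.99 percentage points (exact permutation test, p = 0.38, adjusted p = 0.39). The number of separate intervals per site was 1 to 1.15 in MC and 1.02 to 1.18 in MA (exact permutation test, p = 0.39, adjusted p = 0.39). Of the 92 sites, 55 were those broad in all 12 libraries, so the test bears on the tall and shared places. At the 49 sites under 32 RPM in both choosing libraries the difference in width was -13.3 bp (exact permutation test, p = 0.68). Sites chosen in MC_Het replicate 5 and MA replicate 5 gave the opposite direction, with MA wider by 126 bp (exact permutation test, p = 0.0083). Sites chosen in MC_Het replicate 6 and MA replicate 6 also gave MA wider, by less.

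Broad intervals of the melanocyte libraries held more summits than those of the melanoma libraries, each library being measured at its own places. The mean number of summits per broad interval was 2.67, 2.46, 2.55 and 3.01 in MC_Het replicates 4, 5 and 6 and MC_Homo. In MA it was 1.96 to 2.11, with a median of 2.05. All 4 melanocyte libraries lay above all 8 tumours, and the difference, MA minus MC, was -0.63 (exact two-sided permutation test over 495 splits, p = 0.0020, the smallest possible, adjusted over 5 tests p = 0.010). A single summit was found in 9.62% to 12.6% of MC and in 20.9% to 27.1% of MA broad intervals, and 3 or more in 44.5% to 56.8% of MC and 20.02% to 25.3% of MA. The mean width of these broad intervals was 684, 602, 639 and 744 bp in the MC libraries and 587 to 605 bp in MA. The 55 members broad in all 12 libraries were part of 151, 3002, 301 and 88 broad members in MC. In MA they were part of 878 to 3609, so the places differed between libraries. The difference in summits was smaller between intervals of nearly the same width. From 500 bp to under 600 bp the melanocyte mean was 2.08 ± 0.070 (SD, n = 4) and the melanoma mean 1.82 ± 0.034 (SD, n = 8), which did not overlap and differed by -0.27 (exact permutation test, p = 0.0020). Within run 2, where no p under 0.05 is possible, the 4 MC libraries again lay above both tumours. At the same place, summits were described only for the 5 members with the highest mean width over the 12 libraries. There the most summits in 1 interval averaged 7.25, 5.25, 4, 5.25 and 3.75 in MC. In MA they averaged 5.875, 5.25, 4, 4.25 and 3.25. Narrower intervals held at most 1.063 summits on average in any library.

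Neighbouring summits within a broad interval lay slightly closer in melanocytes. The median spacing was 203.5, 203, 206.5 and 200 bp in the MC libraries and 206 to 219 bp in MA, with a median of 214 bp. The groups overlapped at MA replicate 4, with 206 bp, and MC_Het replicate 6. The difference was 10.9 bp (exact permutation test over 495 splits, p = 0.0040, adjusted over 5 tests p = 0.010). Among broad intervals of 2 to 32 RPM, it was 8.25 bp (exact permutation test, p = 0.28), and from a threshold of 400 bp it was 5.0 bp (exact permutation test, p = 0.18). From 500 bp to under 600 bp the median spacing was 210, 199, 205 and 202 bp in the MC libraries and 204 to 214 bp in MA. These overlapped and were not tested. Spacing is not independent of the number of summits in an interval of a given width. Within intervals of 2 or more summits, the lowest summit reached a median of 50.0% to 65.0% of the highest in MC and 50.0% to 56.6% in MA.

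**Figure D4:**
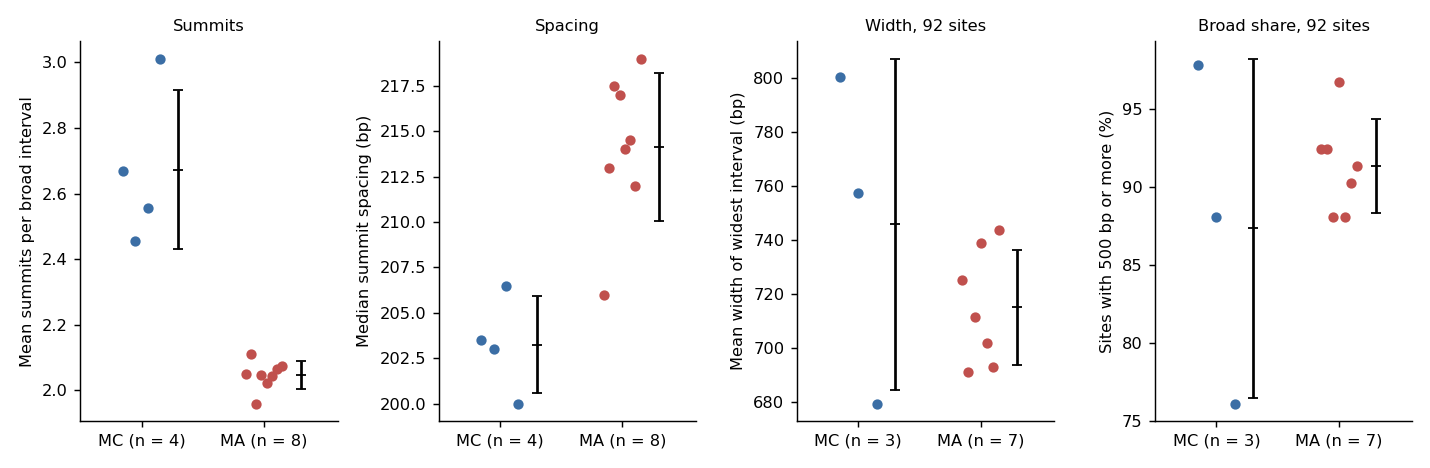
Values per library for MC (blue) and MA (red), with the mean and SD in black: mean summits per broad interval and median summit spacing (bp) over all 12 libraries, and mean width of the widest interval (bp) and share of sites with 500 bp or more (percent) at the 92 sites in the 10 libraries that did not choose them; the y axes do not start at 0. Summits per interval do not overlap (2.46 to 3.01 in MC, 1.96 to 2.11 in MA), and the widths at the 92 sites do (680 to 800 bp in MC, 691 to 744 bp in MA).

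The members with the smallest p for height were all higher in MA. Width in these same libraries chose the members, and 4764 of the 7890 were broad in MA only. Of those named here, chr10:38214495-38214998, chr20:35269295-35270001 and chr9:8103201-8103930 were broad in no MC library and chr24:2419802-2420571 in 1. Their direction and their p-values are therefore a description. Where the MC interval was narrow and low, its height rested on few tags. The median pileup of narrower MC intervals was 9 to 13 tags, so log2 differences at such places are imprecise. At chr24:2419802-2420571 the heights were 1.55, 1.18, 1.13 and 2.03 RPM in MC_Het replicates 4, 5 and 6 and MC_Homo and 17.9 to 57.2 in MA. The interval was 252, 716, 128 and 175 bp wide in MC and 645 to 763 bp in MA, and the log2 difference after centring was 3.42 ± 0.29 (SE; limma, adjusted p = 1.2e-11). chr6:43425842-43426798 was already broad in all 3 MC_Het libraries, at 802, 942 and 904 bp, and 377 bp wide in MC_Homo. Its height was 3.17 to 3.88 in MC and 28.2 to 91.4 in MA, while its width in MA, 541 to 938 bp, covered the range of the MC_Het libraries except at its upper end. There the log2 difference was 3.12 ± 0.26 (SE; limma, adjusted p = 1.2e-11). chr10:38214495-38214998 reached 500 bp in 1 tumour only, at heights of 14.9 to 34.8 in MA and 0.650 to 1.40 in MC. chr20:35269295-35270001 stood at 0.779 to 1.22 in MC and 10.9 to 38.6 in MA, and chr9:8103201-8103930 at 0.609 to 1.94 in MC and 12.2 to 50.5 in MA. The latter was 151 to 356 bp wide in MC, and in MA its median width was 668 bp and its highest 726 bp.

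The members with the smallest p among those called lower in MA belonged to the 55 that were broad everywhere. At chr3:5993193-5994052 the heights were 27.3, 19.2, 22.4 and 24.5 RPM in the MC libraries and 7.78 to 17.2 in MA, which did not overlap, and the log2 difference after centring was -1.95 ± 0.28 (SE; limma, adjusted p = 6.5e-07). It was 630 to 858 bp wide in MC and 543 to 812 bp in MA. chr23:44675911-44676591 stood at 60.1 to 77.8 in MC and 31.7 to 55.1 in MA, and chr12:8060835-8061359 at 36.9 to 48.0 in MC and 17.8 to 30.8 in MA. Widths hardly differed, at 646 to 677 bp in MC and 645 to 653 bp in MA for chr23:44675911-44676591, and at 523 to 525 bp in MC and 519 to 524 bp in MA for chr12:8060835-8061359. chr9:14795109-14795927 and chr22:12102256-12103166 also had heights that did not overlap, 26.1 to 34.8 against 10.98 to 22.1 and 19.7 to 22.8 against 9.11 to 16.3, and the latter was 911 bp wide in each of the 4 MC libraries. Of the 55, 52 were called lower in MA after centring, 35 without centring and 30 with quantile normalization, where 40.8%, 11.7% and 38.1% of all regions were called lower.

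Members were spread over all 25 chromosomes. Chromosome 19 held the most, 497 (6.30% of members, against 4.10% to 7.11% of all intervals of a library), and chromosome 25 the fewest, 194 (2.46%, against 2.09% to 3.38%). Of the members, 448 (5.68%) had another member within 5000 bp, 17.9% within 10000 bp and 61.6% within 50000 bp. The same shares were not computed for other regions, so they do not show whether members lie apart or together. The longest run at 5000 bp held 4 members over 9071 bp on chromosome 2, from 20811061 to 20820131. Each was broad in at most 2 melanocyte libraries and in no tumour.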

How the data were processed

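The 12 ATAC-seq libraries, 4 MC and 8 MA, were grouped by the sample labels. According to the methods, reads were trimmed with CutAdapt and aligned to GRCz11 (danRer11) with BWA. The labels also name GRCz10. Pairs with a mapping quality over 30 were kept and duplicates removed. MACS2 then called peaks in each library alone, without control, extending cuts to 100 bp after shifting them by -50 bp, for an effective genome of 1e+09 bp, with summits called within intervals. Versions are not given in the sources used here. The values the authors deposited per summit were the fold enrichment, a ratio of pileup to local background after adding 1 to each. Also deposited were −log10 values of the Poisson p-value and of the q-value, with a q threshold of 0.05. Starts are printed here with 1 added.

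Lines of 1 interval were collapsed to the summit with the lowest p-value, whose height stands for the interval. Pileup and background were solved from fold and −log10 p; at least 99.998% of pileups lay within 0.05 of a whole number. Tags (6046000 to 24619000 per library) came from the most frequent background. Height was the pileup per 1000000 tags, and its precision is limited by the pileup. The median pileup was 21 to 208.5 tags at broad intervals and 7 to 15 tags at narrower ones. Exact permutation tests used 1 value per library. Heights were fitted with limma 3.58.1 in R 4.3.3 (trend, log2 scale, no pseudocount since every pileup was at least 1), and the tests were tried on simulated data. Named regions were the 5 widest by mean among those broad in all 12 libraries, the 5 with the highest mean MA height broad in 6 or more MA and no MC, the 5 with the highest mean MC height broad in 3 or more MC and no MA, the 3 with most summits, and the 5 lowest p in each direction. The members and lists were chosen with earlier results of these data known. Nearness to genes, gene lists and sequences were not analysed here, since no annotation of danRer11 was used. Each library came from another fish, so equal replicate numbers do not pair libraries: the deviations of same-numbered MC_Het and MA libraries correlated at 0.08, -0.03 and 0.14.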

Additional observations from a re-analysis of the deposited data

Results flagged for a closer look

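Of the 27 sets of values checked, 2 were flagged, and in both MC_Het replicate 5 stood apart from the other melanocyte libraries. The 27 include sets of MA libraries alone, in which it could not be flagged, and chance flags about 1 in 20 groups. Its 3004 broad intervals were the highest of the 4 MC libraries, and the gap to the next was 0.927 of their whole range. In its broad intervals of 2 or more summits the lowest summit reached a median of 65.0% of the highest, against 50.0% to 50.9% in the other 3. This library had 24619000 tags, more than any other, and the part of depth was not tested.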

How the results depend on the processing

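Summits per interval kept their direction under all alternatives and lost significance within run 2 (-0.59, exact permutation test, p = 0.067, the smallest possible) and with the replicate block (-0.52, exact sign-flip test, p = 0.25, the smallest possible). Leaving out 1 library gave -0.70 to -0.51. Spacing differed by 5.0 bp from 400 bp, 6.25 bp in run 2, 7.83 bp with the replicate block and, added after seeing the data, 8.25 bp at 2 to 32 RPM (exact tests, p = 0.18, 0.13, 0.25 and 0.28), and by 9.79 to 12.04 bp without 1 library. At the held-out sites, width differed by 126 bp for sites of replicates 5, 15.9 bp for those of replicates 6 and 15.3 bp from 400 bp, all reversed, and by -63.9 to -3.45 bp without 1 library, where leaving out MC_Homo gave -63.9 bp (exact permutation test, p = 0.028). The broad share differed by 34.0 points for sites of replicates 5, -3.53 from 750 bp, -0.54 with the replicate block and -1.63 to 9.24 without 1 library, with MC_Homo left out giving -1.63. Intervals per site differed by -0.10, -0.028 and -0.0016 for sites of replicates 5, of replicates 6 and from 400 bp, and by 0.0047 to 0.081 without 1 library. The cause was not tested.

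Members called higher in MA numbered 537 with run as a covariate and 475 above median height, where 898 were tested, and 751 to 884 without 1 library. Members called lower numbered 69 without centring, 121 with run, and 162 to 208 without 1 library. Of all regions, 5065, 1822 and 1620 were higher without centring, with run and above median height. In the same order, 1133, 3238 and 2012 were lower. Leaving out 1 library gave 2628 to 3202 higher and 3704 to 3985 lower. The replicate block gave 771 of 1562 members higher (49.4%) and 148 lower (9.5%), against 28.1% and 37.6% of all 9714 regions. With log2 fold enrichment as deposited, 653 of 1562 members were higher (41.8%) and 194 lower (12.4%), against 26.1% and 40.4% of all regions. In that fit 6 of the 24 named members fitted lost significance. Under quantile normalization chr20:21615825-21617139 (0.13) and chr13:23485388-23486796 (0.10) reversed. Members broad in MC only numbered 130 without MC_Het replicate 5, an alternative added after seeing the data, as was keeping sites under 32 RPM. Distance to transcription starts was not run. Lists called per library miss places just under the threshold. Most tumours were sequenced in a run without melanocytes, so run and cell type cannot be told apart for them. By the stated genotypes, the sort marker and the MiniCoopR construct also went with cell type in every library. Of the melanocyte fish, only that of MC_Homo shared the p53 genotype of the tumour fish. The part of these differences cannot be told apart from cell type and was not tested.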
